A study of Mus musculus with 9 samples.

Results

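The genes Tnc, Postn, Fn1, Cthrc1, Loxl2, Fap, Thbs1, Thbs2, Sparc and Tgfbi, extracellular matrix genes known to be induced in fibroblasts of wounded and inflamed skin, were examined in the dermis of mouse ears. They were chosen by symbol from the gene table, and each symbol matched 1 row, so the set held 10 of 52550 genes. RNA sequencing had been performed on 9 dermal libraries to ask how imiquimod (IMQ), which evokes a psoriasis-like dermatitis, and the herbal decoction Xiao-Yin-Fang (XYF) altered gene expression. All mice were wild type animals aged 8 weeks, of strain C57BL/6 by the labels and C57BL/6J by the methods, and each group had 3 libraries. VAS+H2O mice received vaseline on the ear for 5 days and water by gavage for 10 days. IMQ+H2O mice received imiquimod cream for 5 days with the same water gavage. IMQ+XYF mice received imiquimod cream for 5 days with 200 µl of XYF decoction, labelled 23.3 mg/g, by gavage for 10 days. Gavage started ahead of the topical treatment, so XYF was present before imiquimod was applied. There was no group given XYF with vaseline. The methods describe RNA from ear sheets of a pair of mice, and do not make clear whether a library pooled animals, so the p-values measure the spread between libraries.

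Fibroblasts build the dermal matrix, and during repair or inflammation they change the mixture they secrete. Fibronectin and tenascin-C form a provisional scaffold, matricellular proteins such as thrombospondins, SPARC and periostin adjust how cells attach to it, and lysyl oxidases crosslink the collagen laid upon it. Transforming growth factor beta (TGF-beta) is a well known inducer of many of these genes.

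The libraries held 28756305 to 79836881 counts, and the 10 genes took 0.662% to 1.24% of them. Every member passed the filter on low counts. The fibroblast marker list was abundant in every library, with 11830 to 27720 summed CPM, the reads scaled to a common library size. Cartilage, skeletal muscle and keratinocyte markers were also present, and they varied between libraries. Keratinocyte markers summed to 17860 CPM in IMQ+XYF replicate 1 against at most 8669 CPM in any other library. Skeletal muscle markers summed to 153.7 CPM in the same library, and IMQ+XYF replicate 2 had the highest cartilage level of its group at 2940 CPM. The part of these tissues in the results below was not tested. Some fits held the score of a list, the mean of its centred log2 CPM, and are given as descriptions. Cartilage scores were -1.57 to -0.837 in IMQ+H2O, below -0.485 to 0.987 in IMQ+XYF and 0.384 to 1.31 in VAS+H2O. Skeletal muscle scores were 0.325 to 1.28 in IMQ+H2O, above -2.66 to -0.503 in IMQ+XYF. In those comparisons a fit with the score cannot separate tissue from treatment.

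The direction of most means went against the name of the set, but 0 members passed the edgeR limits. In IMQ+H2O against VAS+H2O, only Tnc had a higher mean, and the other 9 genes had lower means. The median log2 fold change of the 10 genes was -0.59, beside -0.023 for all 22430 genes tested. With edgeR's quasi-likelihood test and Benjamini-Hochberg adjustment, 0 members were called higher and 0 lower at an adjusted p of 0.05 and a log2 fold change of 1, whereas 0.646% of all genes were called higher and 0.348% lower. At an unadjusted p of 0.05, 1 member (Tnc) was higher and 5 (Fn1, Loxl2, Fap, Thbs1 and Sparc) were lower, and 20.9% of all genes reached that limit in either direction. The same 6 members were those whose groups did not overlap, and among all genes 15.1% lay entirely higher and 16.5% entirely lower. DESeq2 called 2 members, Tnc as higher and Fap as lower, beside 3.90% of the genes it tested. When libraries were scaled by their fibroblast list counts, the median of the members was -0.096 and that of all genes moved to 0.46. Thbs2, Sparc and Tgfbi then stood just above zero, at 0.034, 0.012 and 0.020. This scaling shifts all genes by nearly the same amount. Where members stand relative to the median of all genes is thus set by the main fit and is no further check. As these are whole-tissue libraries, fewer cells of a type and less RNA per cell cannot be told apart.

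**Figure D1:**
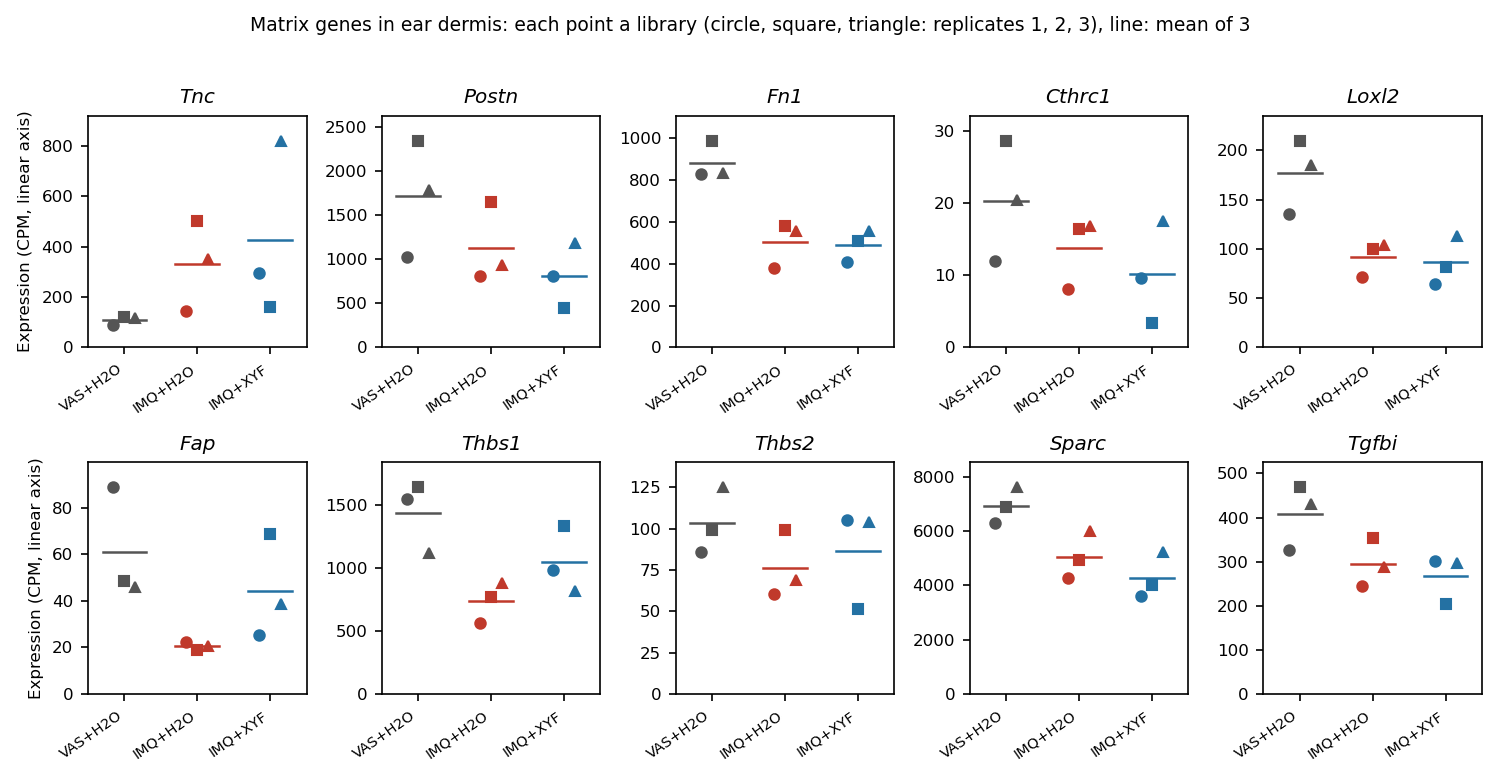
Expression of the 10 genes in CPM on linear axes from 0, with 1 panel per gene, each point a library, symbols for replicates 1 to 3 and a line for the mean of each group. All IMQ+H2O and IMQ+XYF libraries were above VAS+H2O for Tnc, whereas Fn1 and Loxl2 were below VAS+H2O in all of them.

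Tnc (ENSMUSG00000028364, GRCm38 chromosome 4, 63959785 to 64047015, minus strand) encodes tenascin-C, a large glycoprotein of provisional matrix. It had 88.2, 119 and 115 CPM in VAS+H2O, 145, 502 and 351 CPM in IMQ+H2O, and 297, 160 and 822 CPM in IMQ+XYF. Every imiquimod-treated library exceeded every vaseline library, yet the treated libraries spread widely, 3.46-fold within IMQ+H2O and 5.15-fold within IMQ+XYF. The log2 fold change of IMQ+H2O against VAS+H2O was 1.63 (SE 0.60, adjusted p = 0.176 by edgeR), and DESeq2 gave an adjusted p of 0.0406. A fit that also held the cartilage score gave 0.059 (adjusted p = 0.990 by edgeR), and over the 19 alternatives the value ranged from 0.059 to 2.02. For IMQ+XYF against VAS+H2O it was 1.99 (SE 0.61, adjusted p = 0.129 by edgeR), and DESeq2 gave 0.00636, with a range of 1.09 to 2.47 over the alternatives. Without IMQ+XYF replicate 2 the latter was 2.43 and passed the edgeR test (adjusted p = 0.0400). A processed transcript on the opposite strand, 8030451A03Rik, overlaps Tnc, and its counts reached at most 0.640% of those of Tnc.

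Promoter sequence from RefSeq (GRCm38.p6) was found for 5 members, Tnc, Postn, Thbs2, Sparc and Tgfbi, in 7 windows, and not for Fn1, Cthrc1, Loxl2, Fap and Thbs1. The 150 bases before a start site are shown for Tnc, the gene with the higher mean, and for Postn and Thbs2, which had lower means but followed Tnc from library to library within groups. These 3 were chosen after their values were seen, and they are the members with a TATAAA match. Tgfbi and Sparc, also with lower means, followed Tnc as well (r of 0.782 and 0.709, beside 0.785 for Thbs2). Their windows held no TATAAA and are not shown. Capitals mark TATAAA or its reverse complement.
Tnc, chr4:64047016-64047165, minus strand: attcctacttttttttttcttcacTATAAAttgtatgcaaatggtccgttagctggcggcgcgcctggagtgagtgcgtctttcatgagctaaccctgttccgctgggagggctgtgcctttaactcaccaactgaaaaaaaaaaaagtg
Postn, chr3:54360957-54361106, plus strand: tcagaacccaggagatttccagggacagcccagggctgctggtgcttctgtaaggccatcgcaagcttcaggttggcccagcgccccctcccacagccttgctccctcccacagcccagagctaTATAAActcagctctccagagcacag
Thbs2, chr17:14694263-14694412, minus strand: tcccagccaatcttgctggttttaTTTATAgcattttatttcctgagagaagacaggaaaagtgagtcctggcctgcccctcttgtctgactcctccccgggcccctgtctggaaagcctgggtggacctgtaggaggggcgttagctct
In the windows shown, the first base of the TATAAA match lay 26 bases before the Postn start, and 126 bases before the start in both Tnc and Thbs2. Tnc and Postn each had another window, which is not shown. The same Tnc match lay 205 bases before the start of its other window, and the other Postn window held no TATAAA. That other Tnc window also held the letters TATATAAG, much nearer its start, which a scan for exact TATAAA does not count. Over the 250 bases before each start, 8 motifs were searched on both strands. TATAAA was in 4 of the 7 member windows and in 12.4% of all 32851 promoters, and the Sp1 motif GGGCGG was in 3 of 7 and in 32.7% of all. The other 6 motifs had 0 matches in the member windows: AP-1 (TGANTCA, in 6.75% of all promoters), NF-kB (1.41%), the CArG box (1.47%), the SMAD motif (GTCTAGAC, 0.167%), MCAT (CATTCC, 12.6%) and the E2 box (CAGGTG, 17.2%). The matches are descriptions of letters, not of binding, and motifs in Tnc were counted in 2 overlapping windows.

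Fn1 (ENSMUSG00000026193, chromosome 1, 71585520 to 71653200, minus strand) encodes fibronectin, the other main scaffold of provisional matrix. Its level was 828, 990 and 836 CPM in VAS+H2O, 382, 582 and 555 CPM in IMQ+H2O, and 406, 511 and 557 CPM in IMQ+XYF. The vaseline libraries were all above the other 6, and both imiquimod groups covered much the same range. The log2 fold change was -0.81 for IMQ+H2O (SE 0.19, adjusted p = 0.0717) and -0.85 for IMQ+XYF (SE 0.19, adjusted p = 0.0577) against VAS+H2O, both by edgeR and both short of the limits. DESeq2 gave adjusted p-values of 0.00427 and 0.00198, with changes that stayed under the fold limit.

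Sparc (ENSMUSG00000018593, chromosome 11, 55394500 to 55423183, minus strand) encodes a collagen-binding matricellular protein. It was counted at 6300, 6890 and 7610 CPM in VAS+H2O, 4260, 4920 and 5980 CPM in IMQ+H2O, and 3600, 4010 and 5230 CPM in IMQ+XYF. Again the vaseline libraries stood above all others without overlap. Against VAS+H2O the log2 fold change was -0.46 (SE 0.19, adjusted p = 0.214) for IMQ+H2O and -0.70 (SE 0.19, adjusted p = 0.0970) for IMQ+XYF, by edgeR.

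Thbs1 (ENSMUSG00000040152, chromosome 2, 118111876 to 118127133, plus strand) encodes thrombospondin-1, which can activate latent TGF-beta. Its level was 1550, 1640 and 1120 CPM in VAS+H2O, 561, 769 and 880 CPM in IMQ+H2O, and 983, 1330 and 817 CPM in IMQ+XYF. IMQ+H2O lay below VAS+H2O in all libraries, while IMQ+XYF reached into both ranges. The log2 fold change was -0.96 (SE 0.24, adjusted p = 0.0831 by edgeR) for IMQ+H2O against VAS+H2O. For IMQ+XYF against IMQ+H2O it was 0.50, with a 95% interval of -0.039 to 1.04 (adjusted p = 0.447 by edgeR).

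Thbs2 (ENSMUSG00000023885, chromosome 17, 14665500 to 14694235, minus strand) encodes the related thrombospondin-2. It had 85.9, 99.4 and 125 CPM in VAS+H2O, 60.3, 99.1 and 68.7 CPM in IMQ+H2O, and 105, 51.1 and 104 CPM in IMQ+XYF. The 3 groups overlapped, and the log2 fold change of IMQ+H2O against VAS+H2O was -0.44 (SE 0.30, adjusted p = 0.419 by edgeR).

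Postn (ENSMUSG00000027750, chromosome 3, 54361109 to 54391037, plus strand) encodes periostin, a matricellular protein of collagen-rich tissue. It had 1030, 2350 and 1790 CPM in VAS+H2O, 807, 1650 and 931 CPM in IMQ+H2O, and 813, 452 and 1180 CPM in IMQ+XYF. The groups overlapped, since VAS+H2O replicate 1 was lower than IMQ+H2O replicate 2 and IMQ+XYF replicate 3. By edgeR the log2 fold change was -0.61 (SE 0.42, adjusted p = 0.440) for IMQ+H2O and -1.08 (SE 0.43, adjusted p = 0.224) for IMQ+XYF against VAS+H2O.

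Tgfbi (ENSMUSG00000035493, chromosome 13, 56609523 to 56639562, plus strand) encodes a TGF-beta-induced protein of the same fasciclin family as periostin. Its level was 327, 469 and 431 CPM in VAS+H2O, 244, 354 and 289 CPM in IMQ+H2O, and 302, 204 and 298 CPM in IMQ+XYF. All IMQ+XYF libraries lay below VAS+H2O, whereas IMQ+H2O overlapped it. Relative to VAS+H2O the log2 fold change was -0.47 (SE 0.21, adjusted p = 0.242) for IMQ+H2O and -0.61 (SE 0.21, adjusted p = 0.163) for IMQ+XYF, by edgeR.

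Cthrc1 (ENSMUSG00000054196, chromosome 15, 39076932 to 39087121, plus strand) encodes a secreted protein known from injured vessels and fibrotic fibroblasts. It had the lowest CPM values of the set, 12.0, 28.7 and 20.4 in VAS+H2O, 8.03, 16.4 and 16.8 in IMQ+H2O, and 9.59, 3.34 and 17.5 in IMQ+XYF. The groups overlapped, and IMQ+XYF replicate 2 was the lowest library. IMQ+H2O against VAS+H2O gave a log2 fold change of -0.56 (SE 0.56, adjusted p = 0.598 by edgeR).

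Loxl2 (ENSMUSG00000034205, chromosome 14, 69609068 to 69695834, plus strand) encodes a lysyl oxidase that crosslinks collagen. Its level was 135, 210 and 185 CPM in VAS+H2O, 71.3, 100 and 104 CPM in IMQ+H2O, and 64.3, 81.5 and 113 CPM in IMQ+XYF. The vaseline libraries were all above the other 6. The log2 fold change was -0.95 (SE 0.25, adjusted p = 0.0916) for IMQ+H2O and -1.03 (SE 0.25, adjusted p = 0.0713) for IMQ+XYF against VAS+H2O, by edgeR, and DESeq2 called the latter (adjusted p = 0.00414). Loxl2 overlaps Gm27177 on the opposite strand, whose counts reached 15.3% of those of Loxl2. Whether the counting used strand is not given in the sources used here, so reads of such pairs cannot be told apart.

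Fap (ENSMUSG00000000392, chromosome 2, 62500943 to 62574075, minus strand) encodes fibroblast activation protein, a surface protease. It had 88.9, 48.4 and 46.1 CPM in VAS+H2O, 22.4, 19.0 and 20.8 CPM in IMQ+H2O, and 25.5, 68.6 and 38.7 CPM in IMQ+XYF. IMQ+H2O was the lowest group, below every library of both others, and varied least. The log2 fold change of IMQ+H2O against VAS+H2O was -1.56 (SE 0.37, adjusted p = 0.0752 by edgeR), and DESeq2 called it (adjusted p = 0.00166). The edgeR call also appeared when IMQ+XYF replicate 1 or replicate 2 was left out (adjusted p = 0.0472 and 0.0308) and when only the 2 groups were fitted (adjusted p = 0.0334). A fit that also held the cartilage score gave 0.12 (adjusted p = 0.916 by edgeR). In that comparison cartilage markers summed to 1843 to 3956 CPM in VAS+H2O and 514.5 to 936.6 CPM in IMQ+H2O.

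The second comparison asked whether XYF altered these genes in imiquimod-treated ears. In IMQ+XYF against IMQ+H2O, 4 members (Tnc, Fap, Thbs1 and Thbs2) had higher means and 6 had lower ones, with a median log2 fold change of -0.066 beside 0.0055 for all genes. By edgeR 0 members were called higher and 0 lower, as were 0.00446% and 0.00446% of all genes, and DESeq2 called 0 members beside 1.10% of its genes. Fap was the single member with an unadjusted p under 0.05, which 11.7% of all genes reached. It was also the single member whose groups did not overlap, being higher, where 9.22% of all genes lay entirely higher and 8.74% entirely lower. Its log2 fold change was 1.09, with a 95% interval of 0.26 to 1.93 (adjusted p = 0.374 by edgeR), while a fit that also held the cartilage score gave -0.15 (adjusted p = 0.846). Cartilage markers summed to 1063 to 2940 CPM in IMQ+XYF, above IMQ+H2O. For Tnc the interval was -0.98 to 1.70 around 0.36, and without IMQ+XYF replicate 3 the value was -0.54. For Fn1 it was -0.46 to 0.38 and for Loxl2 -0.64 to 0.47.

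In IMQ+XYF against VAS+H2O the pattern was 1 higher (Tnc) and 9 lower, with a median of -0.65 beside -0.024 for all genes. Scaling by the fibroblast list moved the median of all genes to 0.63 and put Fap, Thbs1, Thbs2 and Tgfbi above zero, at 0.12, 0.21, 0.39 and 0.060. By edgeR 0 members were called higher and 0 lower, beside 0.695% and 0.508% of all genes. DESeq2 called 2 members, Tnc and Loxl2, beside 3.42% of its genes. At an unadjusted p of 0.05, Tnc was higher and Postn, Fn1, Loxl2, Sparc and Tgfbi were lower, and 18.3% of all genes reached that limit. The groups did not overlap for Tnc, which was higher, and for Fn1, Loxl2, Sparc and Tgfbi, which were lower, where 11.7% of all genes lay entirely higher and 10.3% entirely lower. Each pair of the 3 comparisons shares a group, so they are not independent of one another.

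**Figure D2:**
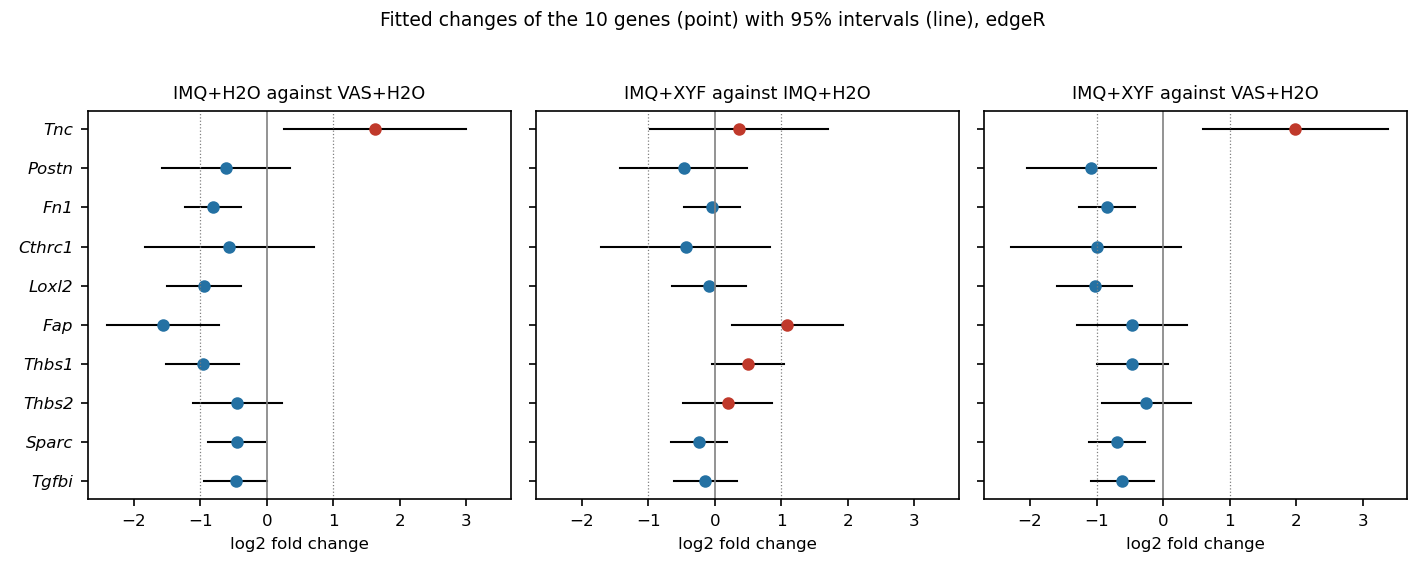
Fitted log2 fold changes of the 10 genes (points, red above 0 and blue below) with 95% intervals (lines) in the 3 comparisons, with dotted lines at -1 and 1. Tnc lay to the right of 0 and the other 9 to the left in both comparisons with VAS+H2O. In any panel, 0 of the 10 passed the edgeR limits. Fibroblast list scaling, not drawn, moved the median of all genes to 0.46 and 0.63 in those comparisons. Under it 3 and 4 of the 9 were above 0.

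Levels between genes were compared per kilobase of exon (RPKM). Sparc was the most abundant gene in every group, with a mean of 1830 RPKM in VAS+H2O, 1330 RPKM in IMQ+H2O and 1130 RPKM in IMQ+XYF, and its libraries did not overlap those of the next gene. Thbs1, Postn and Tgfbi followed, and neighbours among Thbs1 and Postn overlapped in all groups. In VAS+H2O, Fn1 (75.7 RPKM) and Loxl2 (32.7 RPKM) came next, each apart from its neighbours, and Thbs2, Tnc, Cthrc1 and Fap, from 14.8 to 10.8 RPKM, overlapped from one to the next. The place of Tnc differed between groups. It was eighth of the 10 genes in VAS+H2O at 13.8 RPKM, beside Fn1 in IMQ+H2O at 42.8 against 43.3 RPKM, and above the mean of Fn1 in IMQ+XYF at 54.8 against 42.0 RPKM, with overlapping libraries in both imiquimod groups.

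Libraries of the same group differed more for some members than for others. Within IMQ+XYF the coefficient of variation was 82.0% for Tnc and 70.1% for Cthrc1, but 15.7% for Fn1. Deviations from the group means were compared over the 9 libraries for all 45 pairs, as a description, since the values share their libraries and depth. Tnc, Postn, Cthrc1, Thbs2 and Tgfbi moved together, with r of 0.951 for Postn and Tgfbi, 0.901 for Tnc and Cthrc1, 0.832 for Tnc and Postn and 0.785 for Tnc and Thbs2. Fap went the other way, with r of -0.850 with Tgfbi, -0.817 with Thbs2, -0.721 with Postn and -0.718 with Cthrc1, but only -0.451 with Tnc. IMQ+XYF replicate 2 was the lowest of its group for Tnc, Postn, Cthrc1, Thbs2 and Tgfbi and the highest for Fap and Thbs1. That library also had the lowest fibroblast, smooth muscle and keratinocyte sums of its group, at 11840, 550.4 and 4812 CPM. Its endothelial, macrophage, neutrophil, Schwann cell, platelet and adipocyte sums were the lowest as well. Its cartilage, skeletal muscle and dermal papilla sums were the highest of the group, at 2940, 1099 and 1553 CPM. The part of these lists in the pattern was not tested.

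**Figure D3:**
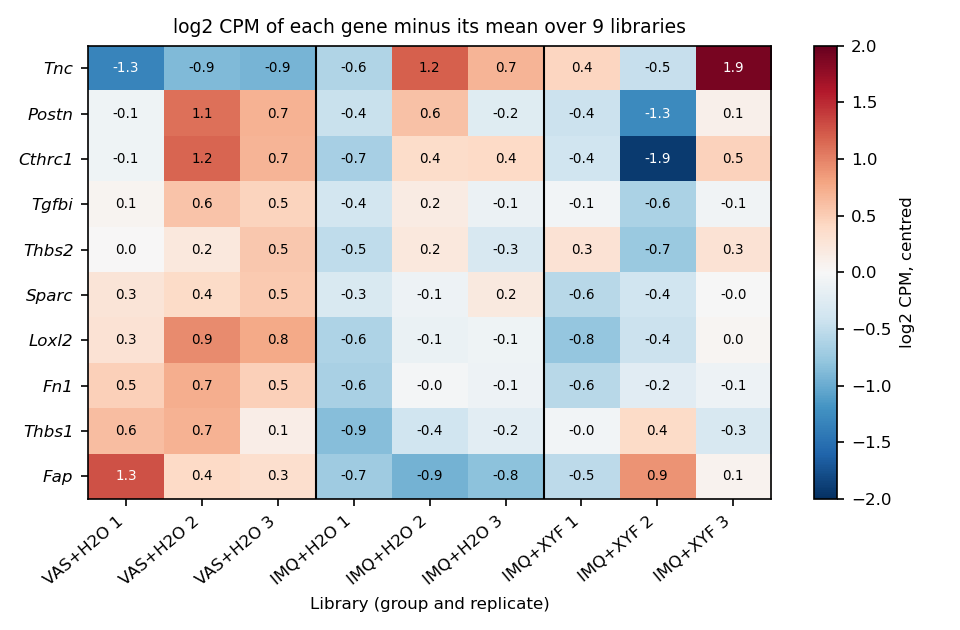
Heat map of log2 CPM for each gene (rows) in each library (columns, by group and replicate) minus the mean of that gene over 9 libraries, red above and blue below. Within IMQ+XYF, replicate 2 was low for Tnc, Postn, Cthrc1, Tgfbi and Thbs2 and high for Fap, and the top row, Tnc, was low in all VAS+H2O libraries.

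Genes that signal to or bind these matrix proteins were examined from fixed lists. Of 21 TGF-beta pathway genes, 0 were called in any comparison by edgeR, and in IMQ+H2O against VAS+H2O 6 had higher and 15 lower means with a median of -0.35. Ltbp2, by name of the latent TGF-beta binding protein family, had 24.8 ± 3.86 CPM in IMQ+H2O against 49.0 ± 5.53 CPM in VAS+H2O (SD, n = 3). Its log2 fold change of -0.98 reached an adjusted p of 0.0247 by edgeR but missed the fold limit. Ltbp3 of the same family was at -0.89 (adjusted p = 0.115 by edgeR). Eng, the endothelial co-receptor endoglin, was at 1.16 (adjusted p = 0.0691 by edgeR), and the signal transducer Smad3 at -0.37 (adjusted p = 0.237 by edgeR). DESeq2 called 1 of the list higher and 1 lower. In IMQ+XYF against IMQ+H2O, 11 of the list had higher and 10 lower means with a median of 0.040. There Smad3 was at 0.53 (adjusted p = 0.364 by edgeR).

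Of 14 matrix receptors, 0 were called by edgeR, with 6 higher and 8 lower means and a median of -0.033 in IMQ+H2O against VAS+H2O. The heparan sulfate proteoglycan Sdc4, a fibronectin co-receptor, was at -0.99 (adjusted p = 0.0506 by edgeR) there and at 0.73 (adjusted p = 0.364) in IMQ+XYF against IMQ+H2O. Itga8 and Itgb5, integrin chains that bind matrix ligands, were at -1.22 (adjusted p = 0.0700) and -0.75 (adjusted p = 0.0628) by edgeR in the first comparison. Sdc1, a related proteoglycan, was at 0.70 (adjusted p = 0.364 by edgeR) with XYF against IMQ+H2O, and at 1.2 (adjusted p = 0.0273), past the limits, in a fit that also held the cartilage score.

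Among 16 family relatives of the members, 0 were called by edgeR, with 8 higher and 8 lower means and a median of -0.14 in IMQ+H2O against VAS+H2O. Loxl4 and Loxl3, lysyl oxidases like Loxl2, were at -1.46 (adjusted p = 0.0621) and -0.95 (adjusted p = 0.120) by edgeR. Comp, a thrombospondin abundant in cartilage, was at -1.60 (adjusted p = 0.121), and Smoc2, a relative of Sparc, at -1.09 (adjusted p = 0.154). With XYF against IMQ+H2O, Comp was at 1.45 (adjusted p = 0.367) and Smoc2 at 1.28 (adjusted p = 0.364), by edgeR.

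General fibroblast markers had 0 of 14 called by edgeR, with 3 higher and 11 lower means and a median of -0.30 in IMQ+H2O against VAS+H2O. Fbn1, the microfibril protein fibrillin-1, had 299 ± 41.5 CPM in IMQ+H2O against 554 ± 47.1 CPM in VAS+H2O (SD, n = 3), at a log2 fold change of -0.89 with an adjusted p of 0.0382 by edgeR, short of the fold limit. The proteoglycans Lum and Dcn were at -0.98 (adjusted p = 0.109) and -0.31 (adjusted p = 0.200), and Dpt, a collagen-binding dermal protein, at -0.58 (adjusted p = 0.137), by edgeR. The 3 higher means were those of Pdgfra (240 against 221 CPM), Pi16 (208 against 193 CPM) and Mfap5 (41.8 against 39.6 CPM). The summed fibroblast list ranged from 16400 to 27720 CPM in VAS+H2O, 11830 to 18920 CPM in IMQ+H2O and 11840 to 19630 CPM in IMQ+XYF. This is the direction of the 9 lower members, and its part in their values was not tested. The sum, and so the fibroblast list scaling, rested mainly on the matrix genes Dcn, Col3a1, Col1a2 and Col1a1. Their means over the 9 libraries were 5450, 3730, 3650 and 2780 CPM, and no other gene of the list exceeded 460 CPM.

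Markers of other cells moved between groups as well. Neutrophil markers summed to 6.646 to 22.29 CPM in VAS+H2O and 207.2 to 659.9 CPM in IMQ+H2O, with 4 of 6 tested genes called higher by edgeR and 6 by DESeq2. Cartilage markers had 3 of 11 tested genes called lower in the same comparison by edgeR and 10 by DESeq2. These edgeR counts were unstable. Without any 1 library of VAS+H2O or IMQ+H2O, 0 cartilage genes were called, and 0 neutrophil genes were called without any 1 library of VAS+H2O or without IMQ+H2O replicate 2 or 3. With a replicate block the counts were 0 for cartilage and 3 for neutrophils. In the 9 other cell type lists 0 genes were called in it by edgeR. Keratinocyte markers summed to 5342 to 8669 CPM in VAS+H2O and 2916 to 4411 CPM in IMQ+H2O, with 9 of 10 means lower and a median log2 fold change of -0.74, the direction of the 9 lower members. Endothelial markers summed to 698.6 to 1085 CPM in VAS+H2O and 1413 to 1489 CPM in IMQ+H2O, smooth muscle markers to 781.3 to 1228 and 1255 to 1402 CPM, and macrophage markers to 635.8 to 935.5 and 748.5 to 1172 CPM. Dermal papilla markers summed to 808.5 to 2217 CPM in VAS+H2O and 295.3 to 583.2 CPM in IMQ+H2O. Adipocyte markers had 4 higher and 4 lower means with a median of -0.0082, and their higher sum in IMQ+H2O, 872.9 to 986.5 against 390.0 to 604.8 CPM, rested on Fabp4 (637 against 321 CPM) and Plin4 (199 against 108 CPM). Schwann cell and platelet markers overlapped between these groups. With XYF against IMQ+H2O, all 12 skeletal muscle, all 10 smooth muscle and all 10 endothelial markers had lower means, with medians of -1.71, -0.88 and -0.66 and 0 called by edgeR. Their sums in IMQ+XYF, 153.7 to 1099, 550.4 to 1087 and 543.2 to 1306 CPM, did not overlap those in IMQ+H2O, where skeletal muscle markers summed to 1516 to 3182 CPM. DESeq2 called 2 of the skeletal muscle genes lower. All 8 Schwann cell and 9 of 10 macrophage markers also had lower means, with medians of -0.61 and -0.58. All 11 tested cartilage and 9 of 10 keratinocyte markers had higher means, with medians of 1.5 and 1.3. DESeq2 called 7 and 2 of these higher, beside 1.10% of its genes, and edgeR called 0. The part of these lists in the values of the members was not tested. The fits with the skeletal muscle and cartilage scores cannot separate it from treatment where the scores of the groups do not overlap.

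**Figure D4:**
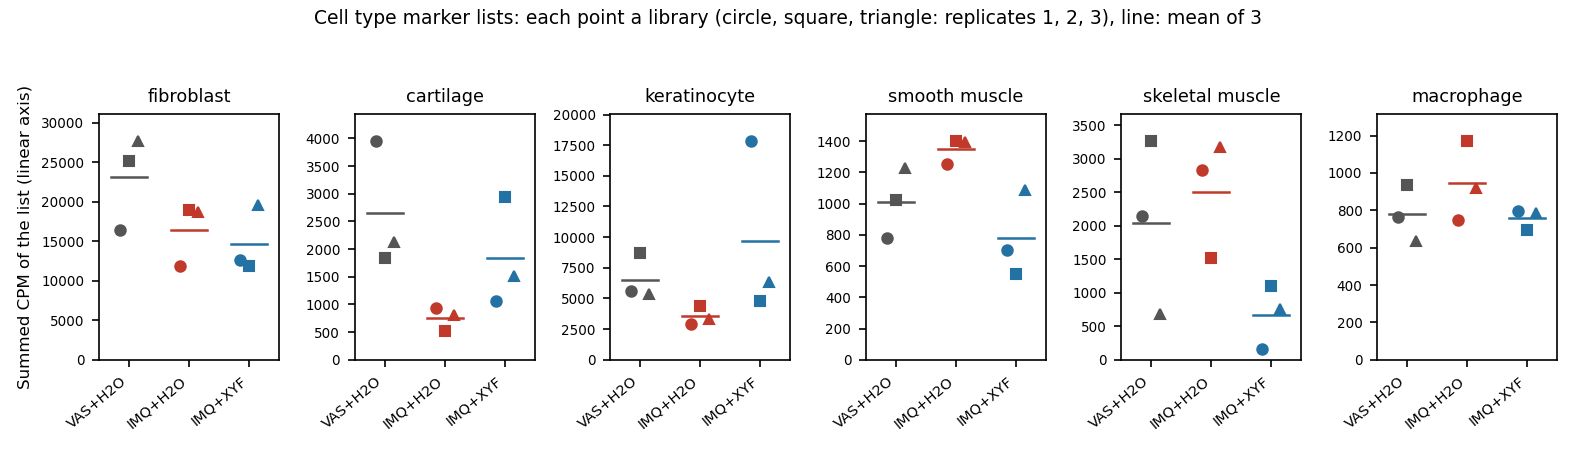
Summed CPM of 6 cell type marker lists on linear axes from 0, each point a library with symbols for replicates 1 to 3 and a line for the mean of each group. Cartilage markers were lower in all IMQ+H2O libraries than in the other groups, and keratinocyte markers reached 17860 CPM in IMQ+XYF replicate 1.

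The genes whose log2 CPM over the 9 libraries most resembled the mean of the 10 members were Pwwp2a (Pearson r = 0.971), Tmem150c (0.965), the clone-named AC125167.1 (0.957), Adamts12 (0.957) and Man2b2 (0.956), out of 13564 candidates. Taken singly, Loxl2 was closest to the collagen gene Col5a1 (r = 0.995), which was also closest to Fn1 (0.975). These values describe 9 shared libraries, and the highest of many candidates are high in part by selection.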

How the data were processed

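Total RNA from ear dermis was sequenced in 9 libraries. The authors aligned reads with STAR 2.5 to GRCm38 with Ensembl annotation and deposited raw counts per gene. The counting tool and strand setting are not given in the sources used here. The labels call the libraries strand-specific, whereas the methods name a TruSeq v2 kit. All 9 columns of counts were used.

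Counts were tested with edgeR 4.0.16 in R 4.3.3 (filterByExpr, TMM, quasi-likelihood test), with 1 coefficient per group in a fit over all 9 libraries, and p-values were Benjamini-Hochberg adjusted over 22430 genes; of 52550 genes, 16554 had no count. A call needed an adjusted p of 0.05 and an absolute log2 fold change of 1. CPM used TMM-scaled library sizes, and RPKM the union of exons in GENCODE's GRCm38 annotation, which also gave the coordinates. Depth was 28756305 to 79836881 counts, so 3 counts correspond to 0.0373 to 0.103 CPM. The script was tested on simulated data. Each comparison was refitted under 19 alternatives, among them DESeq2 1.42.0. Promoters were scanned for 8 motifs.

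Members, gene lists and motifs were chosen with earlier results of these data known. All members were named. From the TGF-beta, receptor, relative and fibroblast lists, the called genes or the 4 with the lowest p in the first pair of comparisons were named. Other cell type lists are given as sums.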

Additional observations from a re-analysis of the deposited data

How the results depend on the processing

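Of 190 refitted member values per comparison (10 genes under 19 alternatives), 180 kept direction and side of the limits for IMQ+H2O against VAS+H2O, 170 for IMQ+XYF against IMQ+H2O and 180 for IMQ+XYF against VAS+H2O. The main fit called 0 members, so keeping the side of the limits meant staying uncalled. Some alternatives left out a library of the group not compared. These counts are therefore no measure of how stable the values are. The cause of the changes below was not tested. In IMQ+H2O against VAS+H2O, 1 member was called higher (Tnc, 2.02) with fibroblast list scaling, 1 lower (Fap, -1.54) with only the 2 groups compared, and 1 higher and 1 lower with DESeq2; leaving out a library gave 0 higher and 0 to 1 lower. The median was -0.096 with fibroblast list scaling and -0.997 with the cartilage covariate. In IMQ+XYF against VAS+H2O, 1 was called higher (Tnc, 2.47) with fibroblast list scaling, where the median was -0.00217, and DESeq2 called 1 higher and 1 lower (Loxl2, -1.01); leaving out a library gave 0 to 1 higher.

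Fibroblast list scaling also reversed Thbs2 (0.034), Sparc (0.012), Tgfbi (0.020), Smad3 (0.072), Sdc1 (0.35) and Dcn (0.15) in the first comparison, Fn1 (0.16), Loxl2 (0.074) and Tgfbi (0.040) in the second, and Fap (0.12), Thbs1 (0.21), Thbs2 (0.39) and Tgfbi (0.060) in the third; it moved the median of all genes to 0.46, 0.18 and 0.63. The cartilage covariate reversed Fap (0.12), Ltbp3 (0.19), Smad3 (0.11), Smoc2 (0.67), Loxl3 (0.31) and Comp (0.58) in the first comparison. In the second it reversed Postn (0.80), Cthrc1 (0.83), Loxl2 (0.057), Fap (-0.15), Tgfbi (0.47), Ltbp3 (-0.21), Itgb5 (-0.0479), Itga8 (-0.0468), Smoc2 (-0.021), Loxl3 (-0.30), Comp (-0.14) and Dpt (0.023), with a median of 0.39. Tnc was at 0.059 with it in the first comparison, and Sdc1 was called in the second (1.2). Among other list genes in the first comparison, Eng (1.19) and Itga8 (-1.19) were called with only the 2 groups compared, Eng (1.18), Itga8 (-1.2) and Loxl4 (-1.44) without IMQ+XYF replicate 2, Ltbp2 (-1.06) without VAS+H2O replicate 1, Eng (1.67) with fibroblast list scaling, and Eng (1.18), Itga8 (-1.2), Loxl4 (-1.44) and Comp (-1.58) by DESeq2, which also called Smoc2 (1.28) in the second. The skeletal muscle covariate reversed Fn1 (0.23), Loxl2 (0.23) and Thbs2 (-0.36) in the second and Fap (0.20) in the third.

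In IMQ+XYF against IMQ+H2O, leaving out 1 library reversed Dcn (-0.017, IMQ+H2O replicate 1), Fn1 (0.071) and Tgfbi (0.00922) (IMQ+H2O replicate 2), Fn1 (0.047) and Loxl2 (0.029) (IMQ+H2O replicate 3), Fn1 (0.078) and Loxl2 (0.086) (IMQ+XYF replicate 1), Cthrc1 (0.00291) and Tgfbi (0.047) (IMQ+XYF replicate 2) and Tnc (-0.54, IMQ+XYF replicate 3). Over these fits Tnc ranged from -0.54 to 0.78, Cthrc1 from -1.08 to 0.00291, Loxl2 from -0.33 to 0.086 and Tgfbi from -0.26 to 0.047. In IMQ+XYF against VAS+H2O, Thbs2 was 0.064 without IMQ+XYF replicate 2 and ranged down to -0.41.

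Same-numbered libraries of different groups had correlations of deviations from -0.183 to 0.125, and differently numbered ones from -0.161 to 0.277. With 3 libraries per group these values cannot show whether the replicate numbers pair the samples. With a replicate block, 0 members were called, the medians were -0.59 and -0.066 in the first pair of comparisons, and the genes called in all went from 223 to 86, from 2 to 0 and from 270 to 54.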

Other observations

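Ratios of per-length levels within a library do not depend on the scaling between libraries; those given here were picked after the values were seen and carry no test. The ratio of Tnc to Fn1 was 0.160, 0.180 and 0.207 in VAS+H2O, 0.571, 1.3 and 0.951 in IMQ+H2O, and 1.10, 0.470 and 2.22 in IMQ+XYF. All 6 imiquimod libraries thus held more Tnc for their Fn1 than any vaseline library, and both imiquimod groups overlapped. The ratio of Thbs1 to Thbs2 was 20.8, 19.1 and 10.3 in VAS+H2O, 10.7, 8.95 and 14.8 in IMQ+H2O, and 10.8, 30.0 and 9.06 in IMQ+XYF, with overlap throughout. The ratio of Fap to Postn was highest in IMQ+XYF replicate 2 (0.233) and VAS+H2O replicate 1 (0.133), and at most 0.0503 in the other 7 libraries. Those were also the libraries with the highest summed cartilage markers, at 2940 and 3956 CPM.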
